A study of Mus musculus with 10 samples.

Results

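Genes of the basement membrane, and of the receptors that hold cells to it, were compared between olfactory epithelium of Apoe4 mice and Apoe3 mice. The group holds every laminin chain and integrin whose symbol matched a naming pattern, together with Npnt, Nid1, Nid2, Hspg2, Agrn, Egfl6 and Fras1. These were 47 of 24421 genes in the authors' deposited table, and 46 of them were tested there, among 16050 tested genes. The remaining member, the leukocyte integrin Itgad, was marked low by the authors and has no adjusted p, so it is not counted as tested. The 47 comprise 5 laminin α chains, 6 laminin β and γ chains, 18 integrin α chains, 9 integrin β chains, 7 other basement membrane proteins, and the 2 genes Itgbl1 and Itgb3bp, which match by name and are not integrin subunits.

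Poly(A)-selected RNA was sequenced from olfactory epithelium, the sensory lining of the nose, of untreated C57BL/6 mice aged 6 months. There were 6 Apoe4 and 4 Apoe3 libraries, described as biological replicates and named for human Apoe alleles, which code for the lipid carrier apolipoprotein E. The question addressed is how these alleles differ in their effect on the tissue. The labels do not state the sex of the mice or how each allele was introduced.

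A basement membrane is the thin protein sheet on which an epithelium sits. Laminins, each assembled from an α, a β and a γ chain, form one of its networks and type IV collagen forms the other. Nidogens, perlecan and agrin are bound to these networks. Integrins are receptors built of an α and a β chain, which join this sheet and other matrix proteins to the cytoskeleton. In the olfactory epithelium the horizontal basal cells, a reserve stem cell, lie against the sheet, and the gland ducts, vessels and nerve bundles beneath it have sheets of their own.

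Reads counted in genes, estimated per library from the steps between low means, ran from about 14900000 to 20100000. A positive fold is higher in Apoe4, a direction inferred from genes for which only 1 library held a read. All folds are log2 values that the authors' model shrank towards 0, so they understate the differences of low or variable genes. In the authors' deposited table the Y-linked genes Eif2s3y, Uty, Ddx3y and Kdm5d were all lower in Apoe4, with log2 fold changes of -3.72 to -2.80 (adjusted p of at most 1.4e-152). The X-linked Kdm6a, Eif2s3x, Kdm5c and Ddx3x were all higher there, at 0.32 to 0.75 (adjusted p of at most 0.00252). Genotype and this sex-linked difference cannot be told apart in the deposited values. In bulk tissue, fewer cells of a type and less RNA per cell cannot be told apart either. The mouse Apoe gene stood at -0.16 (adjusted p = 0.579), per the authors' deposited table, which does not tell the human alleles apart and so does not check the labels. The table holds 1 mean over all 10 libraries per gene, so the number of animals that show a direction cannot be given.

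Nephronectin (Npnt) rose in Apoe4, and no other member passed the test. Npnt was 1.38-fold higher in Apoe4 in the authors' deposited table, or 0.46 ± 0.07 on the log2 scale (standard error, adjusted p = 2.2e-08 by DESeq2). Thus 1 of 46 tested members was called higher and 0 lower, against 0.779% of all tested genes in the authors' deposited table (0.324% called higher, 0.455% called lower). Folds of the other 45 tested members ran from -0.24 to 0.29 in that deposited table, with adjusted p from 0.114 to 0.994. A p that misses the threshold does not show that a gene was alike in the genotypes, and most members' intervals still reach beyond 0.2 on the log2 scale.

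**Figure D1:**
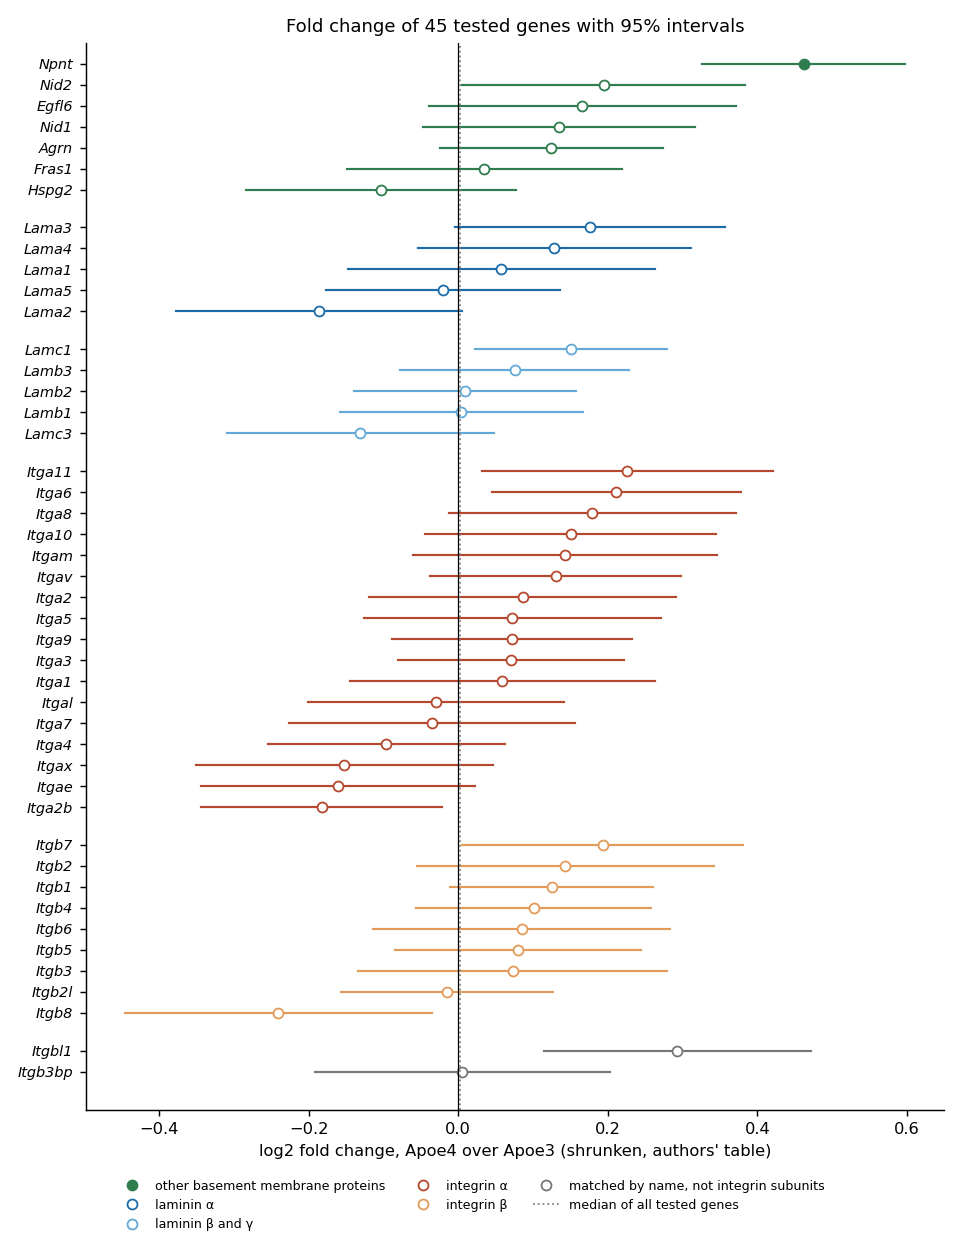
Log2 fold change of Apoe4 over Apoe3 (horizontal axis) for 45 of the 46 tested genes, grouped by family, from the authors' deposited table. Points are the shrunken folds, lines their 95% intervals, and a filled point an adjusted p under 0.05. Npnt stands alone at 0.46, and the other points lie between -0.24 and 0.29.

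Npnt is a secreted ligand that sits in basement membranes and is bound by the integrin of the α8 and β1 chains. In the mouse kidney it is needed for the outgrowth of the ureteric bud. The gene lies on chromosome 3 (chr3:132881745-132950291, GRCm38, minus strand, protein coding). Its binding site for α8β1 is a run of arginine, glycine and aspartate, which its relative Egfl6 shares. The coding bases around that site are shown for both ligands because the chains of the receptor that binds it, Itga8 and Itgb1, are members too. Capitals mark the 9 bases that code for arginine, glycine and aspartate, and the sequences come from the longest coding transcript in GENCODE vM21, read 5′ to 3′ on the gene's own strand.
Npnt: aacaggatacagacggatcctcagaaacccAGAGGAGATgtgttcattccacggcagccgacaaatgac
Egfl6: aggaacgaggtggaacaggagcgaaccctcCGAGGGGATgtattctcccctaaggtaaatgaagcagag

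In both, the bases after the capitals run across a splice junction. In Npnt the 9 bases lie in exon 8 of 12, at chr3:132904665-132904673. In Egfl6, on the X chromosome, they also lie in exon 8 of 12, at chrX:166538421-166538429 on the minus strand. The pattern searched was CGN, AGA or AGG, then GGN, then GAC or GAT, in the reading frame and on the coding strand alone. It occurred in 19 of 47 members and in 7.06% of 21877 coding genes. Long coding sequences offer more places for a match, and a match does not show that a receptor binds there.

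The mean normalized count of Npnt over all 10 libraries was 1890 in the authors' deposited table. That mean and fold imply levels of about 2123 normalized counts in Apoe4 and 1542 in Apoe3. With the shrinkage approximately undone the fold was 1.44, with a 95% interval of 1.29 to 1.61, and the implied levels were 2154 in Apoe4 and 1495 in Apoe3. By p, Npnt ranked as number 23 of all 16050 tested genes, and as number 12 of those higher in Apoe4. When the shrunken fold was tested against a fold of 1.2 instead of no change, Npnt did not pass after adjustment (adjusted p = 1.0). In that test every gene below a fold of 1.2 takes the largest possible p, and the adjustment runs over all 16050 tested genes. The unadjusted interval of 1.29 to 1.61 for Npnt lies above 1.2, but it belongs to the fold with the shrinkage undone. For the shrunken fold that was tested, the unadjusted 95% interval was 0.33 to 0.60 on the log2 scale.

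No gene near Npnt passed the test. Of 23 tested genes within 2.5 Mb on either side, 0 passed the authors' DESeq2 test. As 0.779% of all tested genes passed, a count of 0 is near the background. At an unadjusted p under 0.05 there was 1 neighbour (4.35%), against 10.3% of all tested genes. Their folds ran from -0.15 to 0.13 in the authors' deposited table, with a smallest adjusted p of 0.472. The nearest tested gene on the lower-coordinate side, Tbck, stood at 0.05 and the nearest on the other side, Gstcd, at 0.09 in that deposited table. Both were named after their values were seen, for their place on the chromosome.

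The other members of the nephronectin group did not pass. Itga8, the α chain of its receptor, had a log2 fold change of 0.18 (95% interval -0.01 to 0.37, adjusted p = 0.518) in the authors' deposited table. Its mean and fold imply about 868 normalized counts in Apoe4 and 767 in Apoe3. Itgb1, the β chain shared by many matrix receptors, had 0.12 (interval -0.01 to 0.26, adjusted p = 0.533) in the authors' deposited table. Egfl6, the related ligand, stood at 0.17 (interval -0.04 to 0.37, adjusted p = 0.596) in the authors' deposited table, from a low mean of 76.2 normalized counts. Fras1, a large sheet protein whose complex holds nephronectin in place in the mouse kidney, stood at 0.03 (interval -0.15 to 0.22, adjusted p = 0.932) in the authors' deposited table. All 4 values were positive and smaller than that of Npnt, and the difference between these genes was not tested.

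Among the other basement membrane proteins, per kilobase of transcript, Npnt was also the most abundant, at 409 normalized counts per kilobase. Agrn, a heparan sulfate proteoglycan that organizes nerve-muscle contacts, followed at 218, and Nid1, which links laminin to type IV collagen, at 110 per kilobase. Egfl6 (28.2) and Fras1 (19.5) were the lowest of the 7 on this scale. Nid2, the second nidogen, had a log2 fold change of 0.19 (unadjusted p = 0.0441, adjusted p = 0.473) in the authors' deposited table. Nid1 stood at 0.13 (adjusted p = 0.643) and Agrn at 0.12 (adjusted p = 0.581), per the authors' deposited table. Perlecan (Hspg2), the proteoglycan of vessel and epithelial sheets, was the 1 negative value of the 7, at -0.10 (adjusted p = 0.739), per the authors' deposited table.

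**Figure D2:**
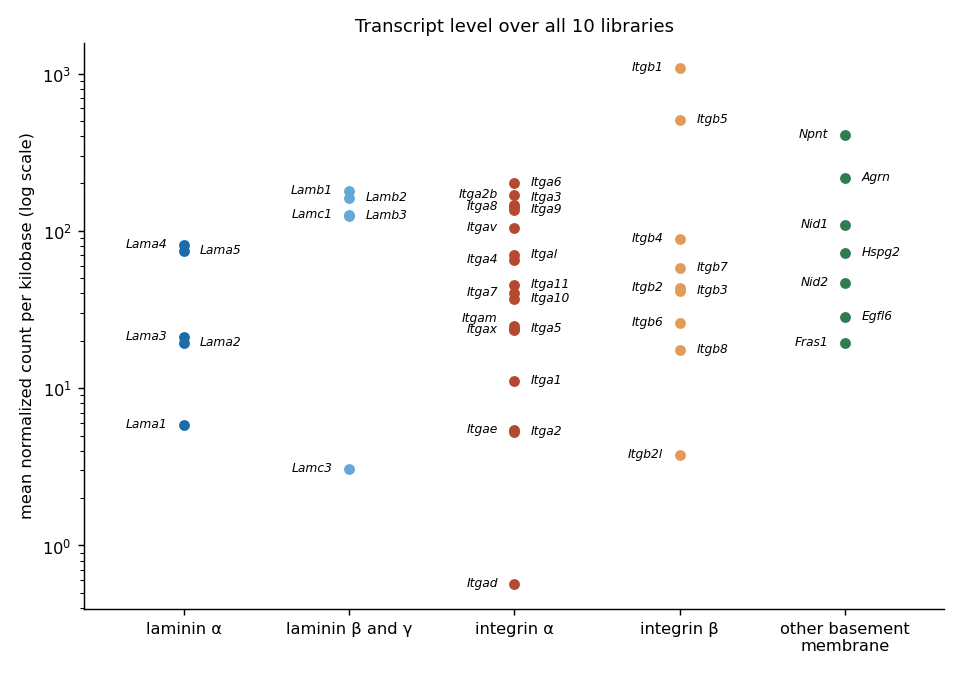
Mean normalized count per kilobase of the longest coding transcript over all 10 libraries (vertical axis, log scale), by family, 1 point for each gene drawn. Itgb1 is the highest at 1078, followed by Itgb5 at 507 and Npnt at 409, and Itgad is the lowest at 0.572.

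Of 11 laminin chains, 0 passed the authors' DESeq2 test, where 0.779% of all tested genes did, so a count of 0 is near the background. At an unadjusted p under 0.05 there was 1 chain, Lamc1, against 10.3% of all tested genes. Their median log2 fold change was 0.03, with a range of -0.19 to 0.18, in the authors' deposited table. Lamc1, the γ1 chain of most laminins, stood at 0.15 (interval 0.02 to 0.28, adjusted p = 0.390) in the authors' deposited table.

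Per kilobase, Lama4 (81.3 normalized counts) and Lama5 (75.0) were the leading α chains, above Lama3 (21.2), Lama2 (19.5) and Lama1 (5.84). Lama4 is the chain of vessel laminins, and Lama5 that of mature epithelial and vessel sheets. They made up 40.1% and 37.0% of the summed α chain level per kilobase. Of the β and γ chains, Lamb1 (178) and Lamb2 (162) were highest per kilobase, then Lamc1 (126) and Lamb3 (124). Lamc3 was the lowest, at 3.06 per kilobase and a mean of 18.0 normalized counts, where the authors marked genes with means up to 9.99 as low. Spreads over libraries were not used, so the order of neighbours such as Lama4 and Lama5, or Lamc1 and Lamb3, is that of the means alone.

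Of the chains that anchor stratified epithelia, Lama3 stood at 0.18 (interval -0.0037 to 0.36, adjusted p = 0.495) and Lamb3 at 0.08 (adjusted p = 0.788), per the authors' deposited table. For laminin-211, the form of muscle and peripheral nerve, Lama2 stood at -0.19 (interval -0.38 to 0.0044, adjusted p = 0.495) in the authors' deposited table. Its partner chain Lamb1 was at 0.00 (adjusted p = 0.994) in that deposited table. For laminin-511 and laminin-521, Lama5 was at -0.02 (adjusted p = 0.955) and Lamb2 at 0.01 (adjusted p = 0.981), per the authors' deposited table. Lama4 of laminin-411 was at 0.13 (adjusted p = 0.666), per the authors' deposited table. Partner chains of 1 laminin thus took different values, and none of these differences between chains was tested.

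Of 26 tested integrin subunits, 0 passed the authors' DESeq2 test, which is likewise near the background of 0.779%. At an unadjusted p under 0.05 there were 3 higher in Apoe4 (11.5%) and 2 lower (7.69%), against 4.54% and 5.76% of all tested genes. The median log2 fold change was 0.07 over 17 tested α chains and 0.08 over 9 β chains in the authors' deposited table. The values nearest to the threshold belonged to receptors of different matrices and cells.

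Itga6, a laminin receptor chain, was the most abundant α chain per kilobase at 203, and had a log2 fold change of 0.21 (interval 0.05 to 0.38, adjusted p = 0.329) in the authors' deposited table. Its partner in the hemidesmosome, the junction that fastens basal cells to the sheet, is Itgb4. Itgb4 had 88.2 normalized counts per kilobase and a log2 fold change of 0.10 (interval -0.06 to 0.26, adjusted p = 0.707) in the authors' deposited table. The other laminin-binding chain Itga3 (145 per kilobase) stood at 0.07 (adjusted p = 0.807), per the authors' deposited table. Collagen receptor Itga11, known from fibroblasts, had 0.23 (interval 0.03 to 0.42, adjusted p = 0.399) in the authors' deposited table, at 45.2 per kilobase.

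Among β chains, Itgb1 made up 57.8% of the summed level per kilobase and Itgb5, the vitronectin receptor chain, 27.2%. Itgb5 stood at 0.08 (interval -0.09 to 0.24, adjusted p = 0.795) in the authors' deposited table. Itgb8, which with αV frees latent TGF-β, had the lowest shrunken fold of all members, at -0.24 (interval -0.45 to -0.04, adjusted p = 0.390) in the authors' deposited table. Its mean and shrunken fold imply about 138 normalized counts in Apoe4 and 163 in Apoe3. With the shrinkage approximately undone Itgb8 was at -0.43, and the tested low-count genes Itgae (-0.60) and Lamc3 (-0.53) lay below it. Itgav, the αV chain itself, stood at 0.13 (adjusted p = 0.620) in that deposited table.

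Of the collagen receptor chains, Itga1 (0.06), Itga2 (0.09) and Itga10 (0.15) were positive in the authors' deposited table. The fibronectin receptor chain Itga5 and the tenascin receptor chain Itga9 were both at 0.07, and the muscle laminin receptor chain Itga7 at -0.04, in that deposited table. The epithelial chain Itgb6 was at 0.08 and Itgb2l, with a mean of 10.6 normalized counts, at -0.02 in the authors' deposited table. The adjusted p of these 8 genes ran from 0.624 to 0.964, and Lama1 of the laminins stood at 0.06 (adjusted p = 0.892) in the same deposited table.

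Integrins of blood cells and leukocytes took both signs. Itga2b, the platelet chain αIIb, was second of the α chains per kilobase at 170 and had a log2 fold change of -0.18 (interval -0.34 to -0.02, adjusted p = 0.414) in the authors' deposited table. Its partner Itgb3 (41.4 per kilobase) stood at 0.07 (adjusted p = 0.860), per the authors' deposited table. The platelet markers Pf4, Ppbp and Gp1bb had means of 48.5 to 68.8 normalized counts and folds of -0.04 to 0.02 in that deposited table, and Gp9 was marked low. The erythroid markers Alas2 and Slc4a1 were lower in Apoe4, at -0.46 and -0.27 (adjusted p = 0.00337 and 0.00509 by DESeq2) in the authors' deposited table. Alas2 lies on the X chromosome and Slc4a1 on chromosome 11, while Hba-a1 and Hbb-bs were listed at a mean of 0. The part of blood cells in the value of Itga2b was not tested.

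Itgb7, the β chain of lymphocyte homing receptors, stood at 0.19 (interval 0.01 to 0.38, adjusted p = 0.473) in the authors' deposited table. Its partner chains α4 (Itga4, -0.10) and αE (Itgae, -0.16) were negative in that deposited table, without passing. The leukocyte β chain Itgb2 was at 0.14 (adjusted p = 0.656), per the authors' deposited table. The α partners of Itgb2 differed in sign there, with Itgam at 0.14, Itgal at -0.03 and Itgax at -0.15 in the authors' deposited table. Itgad, at a mean of 2.35 normalized counts, was marked low and has no adjusted p. Itgam, Itgax and Itgad are neighbours on chromosome 7, with gaps of 11.1 kb and 3.7 kb between them. The leukocyte markers Ptprc (0.02), Cd68 (-0.11), Adgre1 (0.08) and Cd3e (-0.10) also took both signs in the authors' deposited table, and none passed the authors' DESeq2 test or had an unadjusted p under 0.05.

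Itga2 and Itga1 are also neighbours and lie 21.0 kb apart on chromosome 13, at 0.09 and 0.06 in the authors' deposited table. Of 47 members, 10 have a span, introns included, that overlaps that of another protein-coding gene in GENCODE vM21, among them Lamb3, Nid2 and Itga4. Overlap of exons was not examined and the strand setting of the counting is not given. Whether reads of such pairs were mixed is therefore not known. Npnt overlaps none, and 1 non-coding gene lies within it.

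Itgbl1, which was matched by name alone, had the second highest fold of the 46. It codes for a secreted protein with repeats like those of integrin β chains. Its value was 0.29 ± 0.09 on the log2 scale (standard error, unadjusted p = 0.00133, adjusted p = 0.114) in the authors' deposited table. The implied levels were about 438 normalized counts in Apoe4 and 357 in Apoe3. Itgb3bp, a centromere protein that also binds the β3 chain, stood at 0.01 (adjusted p = 0.993), per the authors' deposited table.

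Positive folds outnumbered negative ones. Of 46 tested members, 34 were positive (73.9%), against 51.1% of all tested genes. At an unadjusted p under 0.05 there were 7 higher members (15.2%) and 2 lower (4.35%), against 4.54% and 5.76% of all tested genes. In either direction these were 9 members (19.6%), against 10.3% of all tested genes. The median log2 fold change was 0.07 over members and 0.00 over all tested genes in the authors' deposited table.

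**Figure D3:**
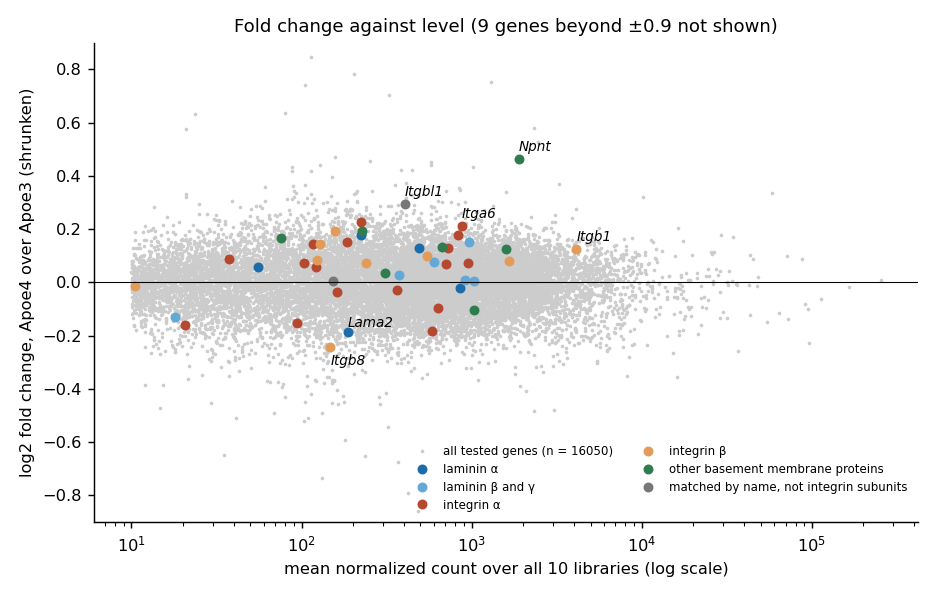
Log2 fold change of Apoe4 over Apoe3 (vertical axis) against the mean normalized count (horizontal axis, log scale) for all 16050 tested genes in grey and the members in colour. Npnt, at a mean of 1890, lies above nearly all grey points of like mean, and the other members lie among them. The 9 genes beyond 0.9 in either direction are not drawn.

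Transcript length moved with these values. Over 15503 tested genes with a length, the Wald statistic (fold divided by its error) rose with length (Spearman rho = 0.446, across genes, which are not independent replicates). Members are long, with a median longest coding transcript of 5193 bases against 3111 over all tested genes, and 41 of 46 fall in the upper 5 of 10 length bins. In those bins the median fold of all genes ran from 0.01 to 0.06, and in the shortest bin it was -0.09. With the trend subtracted, the median of members was 0.03, and 4 members were higher and 4 lower at an unadjusted p under 0.05. The corresponding shares of all genes were then 3.93% and 3.1%. The 4 higher were Npnt, Itga6, Itgb7 and Itgbl1, and the 4 lower were Itga2b, Itgb8, Lama2 and Lamc3. Npnt itself kept a log2 value of 0.43 (adjusted p = 3.7e-07, normal test of the detrended Wald statistic).

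**Figure D4:**
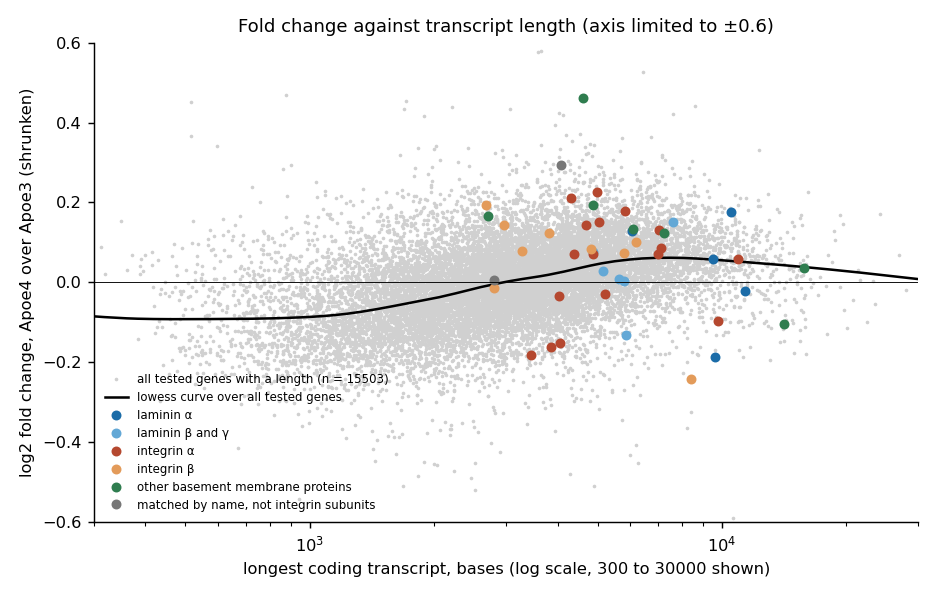
Log2 fold change of Apoe4 over Apoe3 (vertical axis) against the longest coding transcript (horizontal axis, bases, log scale); points outside the drawn axes are left out. Grey points are 15503 tested genes, the line is their lowess curve, and coloured points are the members, most of which lie where the curve is above 0.

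Other genes of the same structures gave no call. Over 6 lists of basement membrane, integrin ligand, matrix receptor, focal adhesion and hemidesmosome genes, 0 of 104 tested genes passed the authors' DESeq2 test, where 0.779% of all genes did. At an unadjusted p under 0.05, 16 were higher (15.4%) and 2 lower (1.92%), against 4.54% and 5.76% of all tested genes. Their median log2 fold change was 0.06, and 0.05 with the length trend removed. These genes are long too, with a median of 4110 bases against 3111 over all tested genes. The counts of 16 and 2 are not given with the length trend removed, so the part of length in them is not known.

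All 10 collagens of basement membranes and anchoring structures had positive folds, from 0.05 to 0.24, with a median of 0.13 in the authors' deposited table (smallest adjusted p = 0.278). With the length trend removed that median was 0.08. The 32 tested focal adhesion genes, which couple integrins to actin, had a median of 0.07 and a range of -0.23 to 0.20 in the authors' deposited table. Other integrin ligands had a median of 0.06 over 21 tested genes, other matrix receptors 0.03 over 17, other basement membrane matrix 0.04 over 19 and hemidesmosome genes 0.09 over 6 in the authors' deposited table. At an unadjusted p under 0.05 these 6 lists held 4 collagens, 4 focal adhesion genes, 3 ligands, 4 receptors, 2 other matrix genes and 2 hemidesmosome genes, with 1 gene in both the collagen and the hemidesmosome list.

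Markers of the cells that make and bind these sheets did not pass either, apart from the erythroid pair above. In the authors' deposited table the median fold was 0.01 over 6 horizontal basal cell markers, 0.08 over 6 endothelial, 0.12 over 4 smooth muscle and 0.08 over 5 ensheathing and Schwann cell markers. It was 0.00 over 5 fibroblast, -0.05 over 4 sustentacular and -0.04 over 5 olfactory neuron markers in the same deposited table. Of these 7 lists 0 genes were called, where 0.779% of all tested genes were, so a count of 0 is near the background. In these lists 1 ensheathing and Schwann cell marker (higher) and 1 sustentacular marker (lower) had an unadjusted p under 0.05. Of all tested genes 10.3% did. Omp, the defining gene of mature olfactory neurons and so of the labelled tissue, had a mean of 113676 normalized counts in the authors' deposited table. The part of cell composition in the value of Npnt was not tested.

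**Figure D5:**
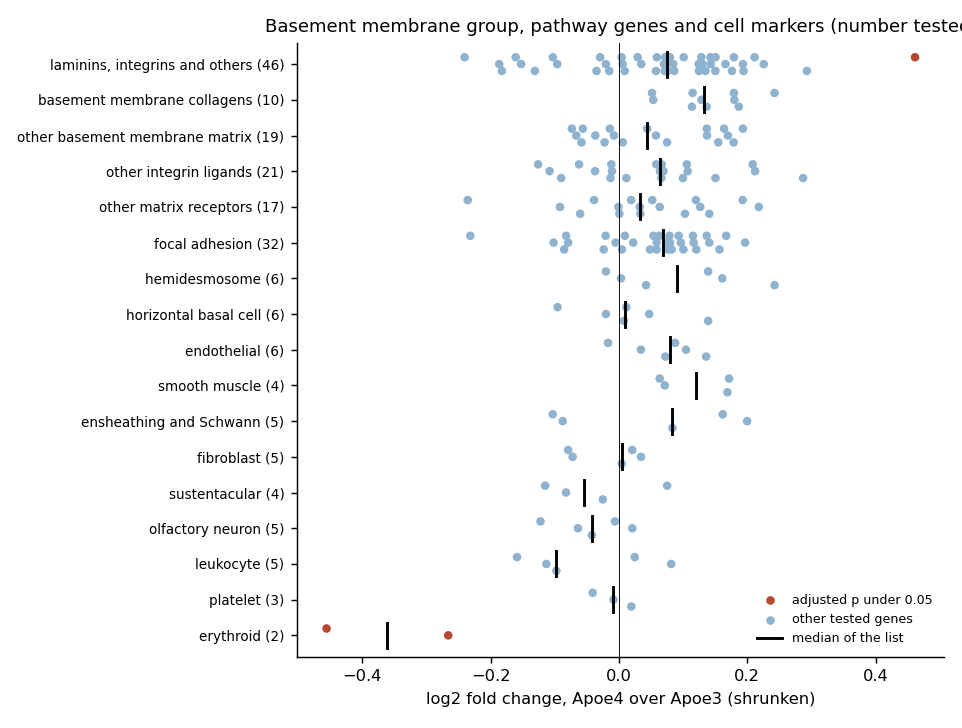
Log2 fold change of Apoe4 over Apoe3 (horizontal axis) for the members and for genes of 16 pathway and cell marker lists (rows, with the number tested). Points are genes, red points have an adjusted p under 0.05, and black bars are medians; the red points are Npnt and the erythroid markers Alas2 and Slc4a1.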

How the data were processed

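RNA of olfactory epithelium from 6 Apoe4 and 4 Apoe3 mice was processed by the authors with STAR, featureCounts and DESeq2 on GRCm38, per the submitters' processing notes; no version, strand setting or annotation is given there. In the 1 table used, the authors deposited a mean signal per gene, the normalized count averaged over all 10 libraries. Per the file headers it also holds log2 fold changes with log2 standard errors, a Wald statistic (a score), p-values and adjusted p-values. The deposited errors had a ceiling of 0.105, a mark of shrinkage by the authors. Adjusted p-values equal Benjamini-Hochberg values over the 16050 genes that were given one, which are the genes called tested here.

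Genes with 1 read in 1 library gave 10 levels of the mean, 6 with positive and 4 with negative folds, which set the direction. With the sum of means, these levels also gave the approximate number of reads counted in genes per library. No values per library were used, so the planned count test was replaced by the authors' DESeq2 test at an adjusted p under 0.05. Intervals are 95%, fold plus or minus its normal error. Shrinkage was undone from the ratio of each error to the ceiling, and implied group levels were solved from mean and fold. Lengths (GENCODE vM21, longest coding transcript, 96.6% of tested genes), positions (RefSeq GRCm38.p6) and a lowess length trend (fraction 0.3, statsmodels 0.14.6, Python 3.11.15) were added. The adjustment, trend removal and undoing of shrinkage were tested on simulated data.

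Members and lists were chosen with earlier results of these data known. Named genes were the nephronectin group, members called, the 12 smallest p, the 3 highest per kilobase in each of 5 families, and called genes of the lists; subunits and partners were added to complete each complex. The series' design text calls the samples biological replicates. Values of 1 member and 1 cell marker are not reported here one by one; both remain in the counts and medians.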

Additional observations from a re-analysis of the deposited data

How the results depend on the processing

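The single call, Npnt, held at adjusted p thresholds of 0.01 and 0.1, over every gene with a p-value (adjusted p = 2.8e-08), over autosomal genes alone (3.3e-08) and with the length trend removed (3.7e-07). All but the length setting reuse the same p of Npnt, so they had little room to change its call. The autosomal setting only removes genes from the adjustment. Against a fold of 1.2 the count of called members was 0, and Npnt had an adjusted p of 1.0 at its log2 fold change of 0.46. No other member was called in any of these settings. The median log2 fold change of members was 0.12 with the shrinkage approximately undone and 0.0339 with the length trend removed, against 0.07. It stayed between 0.07 and 0.08 under the other filters, including the leaving out of Itgb3bp and Itgbl1 and of the X-linked Egfl6, both chosen after seeing the data. The 6 pathway lists had 0 calls in every setting tried. With the length trend removed Lamb1 was at -0.0472 and Lamb2 at -0.0408, against 0.00 and 0.01; both uncalled. The cause of these shifts was not tested. No paired analysis was possible because the deposited table holds no values per library, and for the same reason leaving out replicates and the edgeR and DESeq2 count fits were not run. The mean of 10 libraries limits each gene to 1 fold and its error.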
